A study of Mus musculus with 4 samples.

Results

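The 370 regions of mouse chromosome 19 that lay at the nuclear periphery in wild-type (WT) hepatocytes and not in Tm7sf2 knockout (KO) hepatocytes are described here, out of 7787 such regions in the genome. DamID was run on primary hepatocytes, the main metabolic cells of the liver, freshly isolated from mice aged 12 to 16 weeks and transduced in culture with lentivirus. There were 4 libraries: Dam-LaminB1 and Dam only from WT mice, and Dam-LaminB1 and Dam only from mice that lack Tm7sf2 (Tm7sf2-/-, also named NET47). Each library came from the pooled DNA of 4 mice, so each genotype had 1 pair of libraries, differences between mice were not measured, and no difference between the genotypes could be tested. The lists used here hold the positions of lamina-associated domains (LADs) in each genotype, and of differential regions (DRs), the stretches that were LAD in 1 genotype only. The members were all WT-only DRs with chromosome 19 as their chromosome: stretches of a WT LAD outside every KO LAD, of at least 10 kb. The members were thus selected on the LAD calls of both genotypes, and what they lost in KO is a description and not a finding. The lists hold no signal, score or depth per region, and the labelled cell type could not be checked against marker expression in them.

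In DamID, a bacterial adenine methylase joined to lamin B1 methylates GATC sites that come close to the lamina, the protein mesh that lines the inner nuclear membrane, and a free Dam methylase corrects for how open the DNA is. LADs are long, gene-poor and A+T-rich stretches in which most genes are silent or weakly expressed, and many of them hold tissue-specific genes of other tissues. Tm7sf2 is a sterol reductase of cholesterol synthesis that sits in the inner nuclear membrane and the endoplasmic reticulum. Gene positions are named as PI (at the periphery in WT, overlapping a WT-only DR), IP (overlapping a KO-only DR), AMB (overlapping both kinds), PP (in LADs of both genotypes with no DR) and II (none of these).

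All 740 borders of the 370 DRs fell on a GATC site. The borders of the 3 longest DRs, and of the longest DR that was a complete WT LAD, are printed because they show where the calls start and end. Sequences are of the plus strand of the mm9 (NCBIM37) assembly, 60 bases each, with the GATC at the border in capitals. The longest DR, of 174.5 kb, lay in introns and 1 or more exons of Prkg1 at chr19:30869918-31044444. Its borders were both in introns:
Prkg1 DR, first border: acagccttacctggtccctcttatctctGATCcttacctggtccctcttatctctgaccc
Prkg1 DR, last border: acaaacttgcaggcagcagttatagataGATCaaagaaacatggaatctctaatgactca
The next, of 170.7 kb, lay in an intron of Trpm3 at chr19:22252790-22423496:
Trpm3 DR, first border: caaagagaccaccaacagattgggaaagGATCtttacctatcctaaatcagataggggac
Trpm3 DR, last border: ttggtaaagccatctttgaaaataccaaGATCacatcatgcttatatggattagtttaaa
The third, of 168.9 kb, ran from outside genes into Sorcs1 at chr19:50198046-50366900:
Sorcs1 DR, first border: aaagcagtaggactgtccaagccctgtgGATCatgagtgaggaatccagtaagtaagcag
Sorcs1 DR, last border: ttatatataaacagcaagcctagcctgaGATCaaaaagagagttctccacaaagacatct
The longest DR that was a complete WT LAD, of 115.9 kb at chr19:34420594-34536537, held no protein-coding gene of the annotation:
Complete-LAD DR, first border: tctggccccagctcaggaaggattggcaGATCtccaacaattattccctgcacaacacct
Complete-LAD DR, last border: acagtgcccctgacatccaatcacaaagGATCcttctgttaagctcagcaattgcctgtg

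The DRs differed in base composition, and the middle 200 bases of the DRs with the lowest and the highest G+C content are printed to show that range. The lowest, 34.9% G+C, was a DR of 10.7 kb inside Lipo1, a gene of the acid lipase cluster, and the 200 bases at chr19:33766262-33766461 are intronic. The highest, 47.0% G+C, was a DR of 26.5 kb inside Tll2, a gene for a tolloid-like metalloprotease, and its 200 bases at chr19:41256625-41256824 are intronic as well. Capitals mark GATC, which occurs in the former 200 bases and not in the latter. Over the complete DRs, GATC was at 1.78 per kb (19 sites) in the Lipo1 DR and 2.75 per kb (73 sites) in the Tll2 DR.
Lipo1 DR, middle: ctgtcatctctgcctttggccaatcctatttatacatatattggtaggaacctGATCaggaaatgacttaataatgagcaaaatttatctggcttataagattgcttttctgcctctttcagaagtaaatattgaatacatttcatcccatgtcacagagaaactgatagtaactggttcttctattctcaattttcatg
Tll2 DR, middle: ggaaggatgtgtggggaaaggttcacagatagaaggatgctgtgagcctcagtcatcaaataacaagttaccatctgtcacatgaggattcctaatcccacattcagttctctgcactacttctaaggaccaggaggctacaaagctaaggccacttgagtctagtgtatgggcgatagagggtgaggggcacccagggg

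The chromosome 19 DRs were long. Their median length was 28.04 kb, with the middle of the distribution between 15.3 and 49.3 kb, and together they covered 14.1 Mb. The median on each of the other 18 autosomes lay between 14.3 and 17.7 kb. On chromosome 19, 20 DRs reached 100 kb, against 0 to 3 on any other autosome. The 84 longest DRs held 50% of the DR bases. Because the rule has a length minimum, the shortest members were 10076, 10139 and 10161 bases long, and the longest stretches that missed it were 9979, 9972 and 9868 bases. There were 95 shorter stretches in all.

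Most of the released stretches were pieces of a larger WT LAD rather than complete LADs. Of the 370 DRs, 173 (46.8%, Wilson 95% interval 41.7 to 51.8) lay inside a WT LAD with LAD kept on both sides, 109 (29.5%, 25.04 to 34.3) included 1 edge of it, and 88 (23.8%, 19.7 to 28.4) were a complete WT LAD. The intervals cover counting error only. On the other autosomes, 54.6 to 71.95% of WT-only DRs were inside, 18.7 to 26.2% were at an edge and 9.17 to 19.2% were complete LADs. In the lists as deposited, chromosome 19 thus had the lowest share inside and the highest shares of the other kinds among 19 autosomes. There is no replicate for this difference. With LADs joined across gaps of up to 50 kb, 63.8% of its DRs were inside and 10.5% complete. The other autosomes were not recomputed under such settings, so the ranking was not checked there. Edge DRs had a median length of 32.6 kb, inside DRs 28.5 kb and complete-LAD DRs 22.9 kb.

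**Figure D1:**
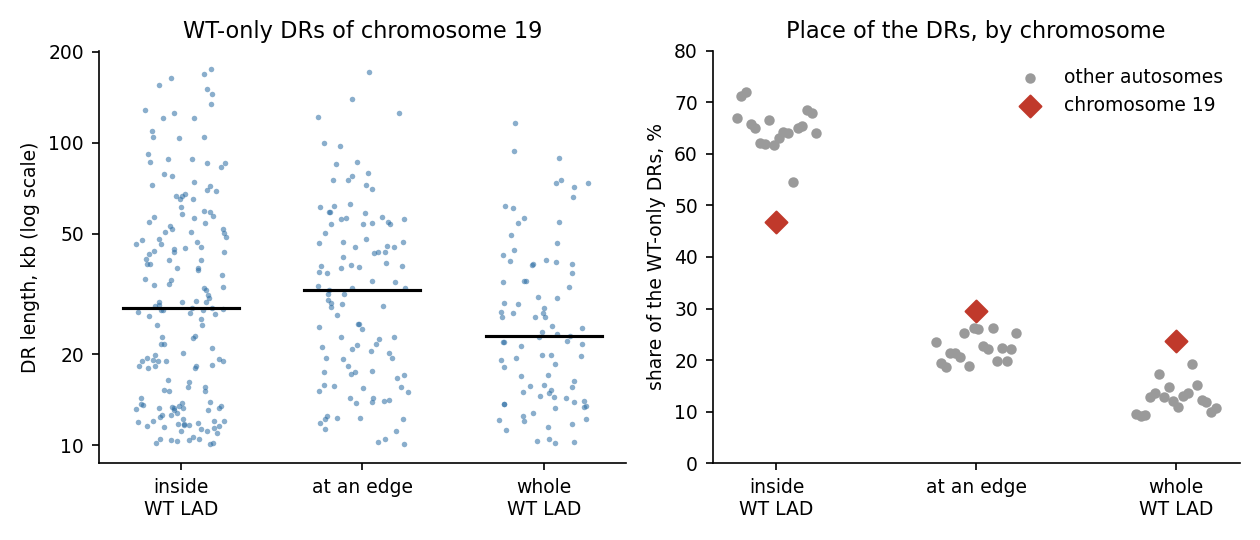
Left, length in kb (log scale) of each of the 370 WT-only DRs of chromosome 19 (points) by its place in the WT LAD, with the median as a line (28.5, 32.6 and 22.9 kb). Right, share of the WT-only DRs in each place for chromosome 19 (diamonds) and for each of the other 18 autosomes (grey points). The diamond lies below all grey points for DRs inside a LAD and above all of them for the other places.

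DRs that were a complete WT LAD touched no KO LAD. Their nearest KO LAD was 37.4 kb away in the median, and between 0.867 and 573 kb. Of all 370 DRs, 76 (20.5%) had no KO LAD within 10 kb, against 5.38 to 13.9% on the other autosomes, and 39 had none within 50 kb. The longest complete-LAD DR, of 115.9 kb and printed above, lay 167.7 kb from the nearest KO LAD. The next, of 93.7 kb at chr19:50939562-51033233, also held no protein-coding gene. The third, of 88.9 kb at chr19:13447548-13536437, held the olfactory receptor genes Olfr1469, Olfr1471 and Olfr1472, each in full. A DR of 75.6 kb at chr19:14880748-14956328 held no gene, and one of 73.6 kb at chr19:27986215-28059782 lay within Rfx3, a transcription factor of ciliated cells.

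Seen from the WT LADs, few of them were untouched. Chromosome 19 had 242 WT LADs, of which 141 held 1 DR, 63 held at least 2 and 38 held none. At least 50% of the bases lay in DRs in 165 LADs (68.2%). Over all chromosomes the share was 21.6%. No KO LAD overlapped 88 of them (36.4%), against 12.3% over all chromosomes. The rule used these calls, so nothing is read from these shares. Each of the 35 WT LADs of at least 200 kb held a DR and was also overlapped by a KO LAD, and 24 of them had at least 50% of their bases in DRs. The longest WT LAD, of 1337 kb at chr19:51141958-52478910, held 15 DRs and 18 KO LADs, and 48.2% of it was in DRs. It spans Ins1, a gene for insulin, which itself lay outside the DRs and was PP. In an 835 kb LAD over Sorcs3 and Ccdc147, 11 DRs made up 42.2%. In the 520.1 kb LAD of Trpm3, 6 DRs made up 79.5%.

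What was left of the WT LADs was short. On chromosome 19 the WT LADs had a median length of 40.9 kb (35.5 to 51.6 kb on the other autosomes) and the KO LADs one of 21.4 kb (32.5 to 49.7 kb). KO LADs that lay in WT LADs had a median of 22.4 kb, against 43.9 to 102 kb elsewhere. Between neighbouring DRs of 1 WT LAD the stretch was 24.2 kb in the median, against 52.8 to 153 kb. The longest WT LAD without a DR, of 112.5 kb at chr19:30504568-30617039, held no protein-coding gene. The next, of 74.0 kb at chr19:11899959-11973942, lay entirely in KO LADs and held the olfactory receptor genes Olfr1417, Olfr1418, Olfr1419 and Olfr1420. The third, of 60.5 kb at chr19:26564830-26625280, held none. The study's text states that KO was sequenced less deeply than WT. The depth is not in the lists, and its part in these lengths was not tested.

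The loss was found in LADs of every size. In WT LADs under 50 kb, 71.6% of the bases lay outside KO LADs (22.2 to 45.8% on the other autosomes). The share was 63.2% (11.8 to 30.1%) in those of 50 to 200 kb and 58.6% (6.64 to 24.7%) in those of 200 to 500 kb. In the 6 LADs of at least 500 kb it was 53.8% (5.30 to 13.0%). On chromosome 19 the share was thus higher in shorter LADs, and in each size class it was above that of every other autosome. The rule used these calls, so nothing is read from that rank.

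The DRs of chromosome 19 were not richer in G+C than the LADs that were kept, unlike those of the other autosomes. The DRs had a G+C content of 39.9% and the LADs of both genotypes 40.04%, a difference of -0.13 percentage points, which was 0.10 points with LADs joined across gaps of up to 50 kb. On each of the other 18 autosomes the DRs were richer in G+C than the kept LADs, by 0.45 to 2.44 points. CpG dinucleotides were at 6.44 per kb in the DRs and 6.85 per kb in the kept LADs. This difference of -0.41 per kb was the lowest of 19 autosomes, the others lying between -0.17 and 1.21. GATC sites, on which the assay depends, were at 2.48 per kb in the DRs and 2.81 per kb in the kept LADs. The difference was -0.324 per kb, and on the other autosomes it lay between -0.316 and -0.142. The part of GATC density in the calls was not tested. Outside LADs of both genotypes the G+C content was 44.8% and GATC was at 2.36 per kb. Among the DRs, those that were a complete WT LAD had a median G+C content of 41.7%, those at an edge 40.1% and those inside 39.3%.

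WT LADs were also divided into 10 kb windows, and a window was called lost where at least 50% of it lay outside KO LADs. Of 2161 windows on chromosome 19, 59.6% were lost, where 11.6% were over all autosomes. The rule used these calls. The lost share was 60.6% in windows under 36% G+C (5.29 to 10.6% on the other autosomes), 66.0% at 36 to 38% (5.63 to 12.6%) and 57.4% at 38 to 40% (5.98 to 14.6%). It was 57.2% at 40 to 42% (7.13 to 18.1%) and 66.2% at 42 to 44% (7.42 to 27.2%). In the windows richest in G+C it was lower, at 48.7% for 44 to 46% (10.2 to 33.7%) and 40% in the 25 windows of at least 46%, close to the highest other autosome at 39.2%. Over these last 3 classes the median of the other autosomes was higher in each class than in the one before, at 15.8, 19.1 and 20.1%. Windows in genes were lost in 63.2% and windows outside genes in 57.9%.

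**Figure D2:**
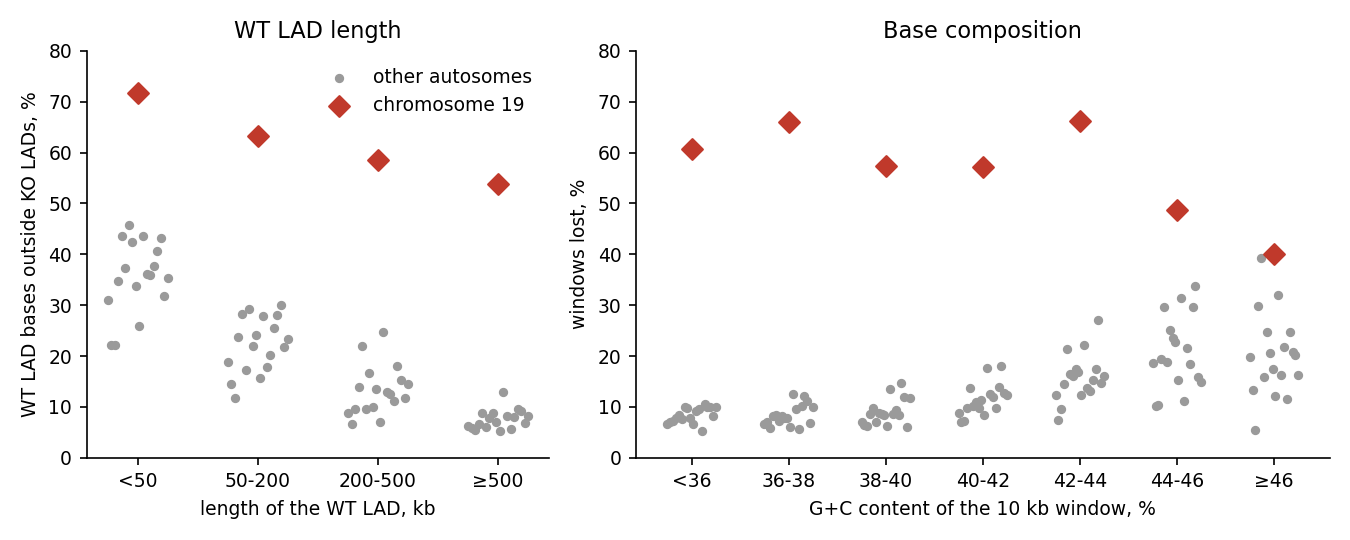
Left, share of WT LAD bases outside KO LADs (%) by the length of the WT LAD, for chromosome 19 (diamonds) and each of the other 18 autosomes (grey points). Right, share of 10 kb windows of WT LADs called lost (%) by the G+C content of the window. Chromosome 19 lies above the grey points in each class, by the least at G+C of at least 46% (40% against 39.2%). The rule that chose the regions used these calls.

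The DRs were spread over most of the segments of the chromosome in which WT had LADs. Of 62 segments of 1 Mb, 48 held WT LAD, 16 held no DR and 7 were DR over at least 50% of their length. The fullest, chr19:22000001-23000000, which holds most of Trpm3, was DR over 68.6%. The share in LADs was higher in WT in 43 segments and higher in KO in 11. KO-only DRs, the regions that were LAD in KO only, numbered 92 and covered 1.71 Mb. They made up 4.59% of the bases outside WT LADs, against 9.78 to 25.7% on the other autosomes.

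Tm7sf2 itself lies on chromosome 19, at chr19:6062821-6068373 on the minus strand, and the KO allele therefore lies on the chromosome described. The lists hold no genotypes, so the loss of Tm7sf2 and any other sequence difference linked to the KO allele cannot be told apart. The gene was II in these lists. Its nearest WT LAD was 1629 kb away and its nearest DR 1780 kb away, at chr19:7848733-7885271. Of the DRs, 1 lay before it and 369 after it. The 5 Mb before its start held 0.046 Mb of WT LAD, and the rest of that side held none, so few DRs could lie there. In the 11 bins of 5 Mb from its start that held at least 0.5 Mb of WT LAD, 51.5 to 72.9% of the LAD bases lay outside KO LADs, with no steady fall or rise with distance. The share was 56.7% in the first 5 Mb after the gene and 72.9% at 50 to 55 Mb.

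**Figure D3:**
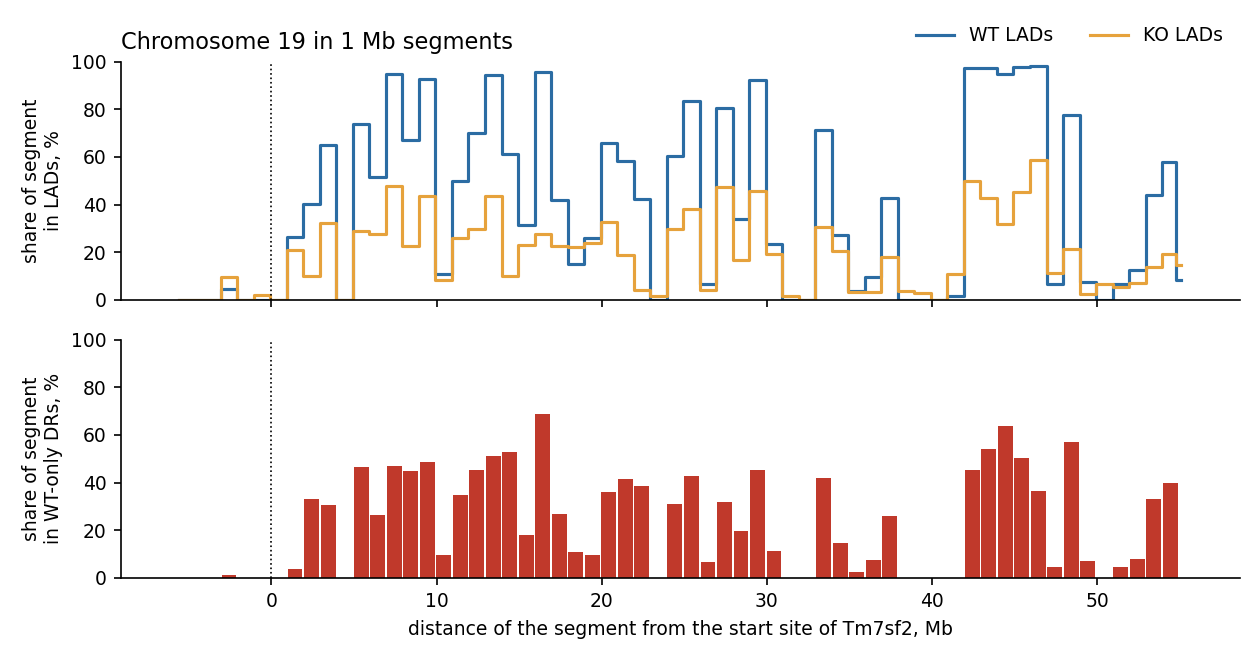
Chromosome 19 in segments of 1 Mb (the last one shorter) against the distance of the segment from the start site of Tm7sf2, in Mb (dotted line at 0). Top, share of the segment in WT LADs and in KO LADs (%). Bottom, share of the segment in WT-only DRs (%), which reaches 68.6% in the segment with most of Trpm3.

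Most of the DRs held no gene. Of the 370, 214 (57.8%) overlapped no protein-coding gene, 137 overlapped 1 and 19 overlapped at least 2. Gene spans made up 32.9% of the DR bases, of which 31.7 points were introns and 1.21 points exons. In the kept LADs, gene spans made up 29.01%. There were 98 DRs wholly in a gene span, and 45 of them held no exon base. Gene starts were at 4.25 per Mb in the DRs, 5.70 per Mb in the kept LADs and 16.7 per Mb outside LADs of both genotypes.

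Of 724 protein-coding genes on chromosome 19, 120 (16.6%) overlapped a DR, where 8.39% of genes did over all chromosomes. Of these, 108 were PI and 12 were AMB. The other genes were II (529), PP (41) or IP (34). The start lay in a DR for 60 genes (2.23% of genes over all chromosomes had theirs in one), and 50 genes lay wholly in a DR (1.24% over all chromosomes). The rule used these calls, and nothing is read from these shares. Of the 50, 30 were olfactory receptor genes and 10 were Ms4a genes. No KO LAD overlapped 75 of the 120 genes, among them the 50 wholly in a DR, for which this follows from the rule. The longest genes wholly in a DR were 1700025F22Rik at 25.7 kb, Ms4a4c at 22.5 kb, Ms4a4d at 21.7 kb, Slc22a26 at 21.6 kb and Ms4a4b at 20.0 kb.

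Some of the released DNA lay in a few very long genes. The 10 genes with the most DR bases held 2.89 Mb, or 20.5% of all DR bases, in 63 DRs. WT LADs covered from 47.5% (Glis3) to 98.4% (Sorcs3) of their spans, and 39.4% of the chromosome. These genes thus had more LAD to lose, and their share of all WT LAD bases was not computed. Of the 61 genes of at least 100 kb, 25 overlapped a DR. Longer genes have more bases that can overlap, and long genes of other chromosomes were not counted. Prkg1, a cGMP-dependent protein kinase of smooth muscle and neurons, had 626.0 kb in 14 DRs, or 52.4% of its span. Trpm3, a cation channel, had 611.3 kb in 9 DRs, or 71.8%. LADs of both genotypes covered 40.2% of Prkg1 and 15.7% of Trpm3. Hpse2, a relative of heparanase, had 333.1 kb (55.6%) in DRs. The sorting receptor genes Sorcs1 and Sorcs3 had 293.3 kb (54.9%) and 254.4 kb (42.4%). Glis3, a zinc-finger transcription factor of endocrine pancreas, had 199.955 kb (47.5%) and no KO LAD over its span. The annotation holds a shorter model of Glis3 as well, which was 97.2% DR.

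The rest of the 10 were smaller. Pcsk5, a proprotein convertase, had 186.5 kb in DRs (46.1%). Rfx3 had 152.3 kb (61.04%), and Tmc1, a channel component of inner-ear hair cells, had 130.3 kb (76.3%), its start included. Rnls, the gene for renalase, had 105.3 kb (41.4%) and was AMB, since KO-only DRs covered 9.03 kb of it. Among the 10 longest DRs, that of 150.3 kb at chr19:50026202-50176487 held only Rpl13a-ps1, a ribosomal protein pseudogene that the annotation lists as protein-coding. Of the others, 4 held no protein-coding gene, the longest of them being 163.8 kb at chr19:54824846-54988599.

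**Figure D4:**
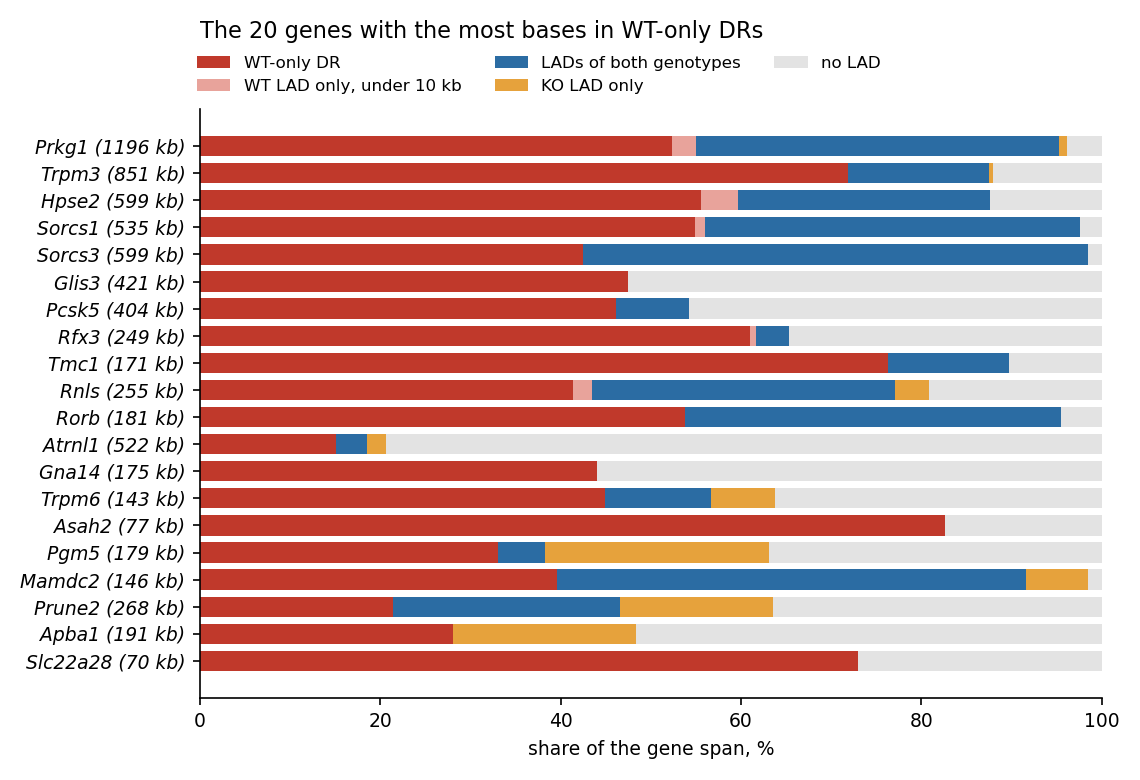
Bars give how much of each gene (%) lay in WT-only DRs, in shorter WT-only stretches, in LADs of both genotypes, in KO LADs only and in no LAD, shown for the 20 chromosome 19 genes with the most DR bases (span in kb beside the symbol). Prkg1 (52.4%) and Trpm3 (71.8%) have the most DR bases, and Glis3 has DR (47.5%) and no LAD kept in KO.

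An intron of Trpm3 carries Mir204, at chr19:22825095-22825162, in the DR of 134.7 kb at chr19:22737191-22871876. MiR-204 is a microRNA known from retina and other epithelia. Its mature sequences are shown because the microRNA lies in one of the 10 longest DRs, and are from RefSeq (GRCm38.p6), with the seed, bases 2 to 8, in capitals:
miR-204-5p: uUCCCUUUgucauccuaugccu
miR-204-3p: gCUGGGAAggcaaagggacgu

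The gene lists were compared by their counts, beside the 120 of 724 genes of the chromosome. Only a gene in a WT LAD could overlap a DR, and 585 gene starts of the chromosome lay outside LADs of both genotypes. WT LADs overlapped 14 of the 15 Cyp2c genes, 15 of the 17 Ms4a genes and 60 of the 65 olfactory receptor genes. They overlapped 6 of the 10 Slc22 genes and 7 of the 8 acid lipase genes. The counts below thus depend on which lists lie in WT LADs. The Cyp2c genes encode cytochrome P450 enzymes that act on drugs, steroids and fatty acids, and many are expressed in liver. Of 15, 12 were PI, Cyp2c54 was IP, Cyp2c66 was PP and Cyp2c44 was II. Cyp2c37 lay wholly in a DR, Cyp2c65 over 83.5% of its span, Cyp2c69 over 69.1% and Cyp2c68 over 60.9%. At the low end, Cyp2c70 overlapped a DR with 4.70% of its span. The genes of such families are alike in sequence, and how reads were shared between them cannot be read from the lists.

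The Ms4a genes encode 4-pass membrane proteins of blood cells, among them Ms4a1 (CD20 of B cells) and Ms4a2 (a chain of the mast cell IgE receptor). Of 17, 15 were PI and 10 lay wholly in a DR, both of these included, while Ms4a10 and Ms4a15 were II. The largest list was that of olfactory receptors, the odorant receptors of nasal neurons, with 65 genes. Of these, 32 were PI, 27 were PP and 6 were II. The II genes included Olfr1497, which lay wholly in a LAD in WT only, and Olfr1499, which lay wholly in a LAD in KO only. The olfactory receptor genes were thus mainly divided between released and kept LAD, with 30 of them wholly in a DR.

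Of the 10 Slc22 genes, which encode organic anion transporters, 4 were PI and 1 was AMB. Slc22a26 lay wholly in a DR, Slc22a28 over 72.9% and Slc22a27 over 38.7%, whereas Slc22a19 was PP and Slc22a6, Slc22a8, Slc22a12 and Slc22a20 were II. Of the 8 acid lipase genes, 4 were PI, with DR over 37.0% of Lipn, 35.3% of Lipm, 27.0% of Lipk and 4.38% of Lipo1. Lipf, Lipo2 and Lipo4 were PP, and Lipa, the lysosomal acid lipase, was II.

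None of the 10 genes of fatty acid synthesis and desaturation overlapped a LAD of either genotype, Scd1, Fads1, Fads2 and Elovl3 among them. Of 20 genes of hepatocyte function, 4 overlapped a DR and the other 16 were II. Vldlr, the receptor for very low density lipoprotein, had 74.3% of its span in a DR, Aldh1a7, an aldehyde dehydrogenase, 57.0%, Pcsk5 46.1% and Entpd1, an ectonucleotidase that was AMB, 15.3%. The II genes included Abcc2, Got1 and Rbp4.

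A list of receptors, channels and other proteins of the nervous system held 20 genes and also took in Hpse2. Of these 20, 10 overlapped a DR, 7 as PI and 3 as AMB. Besides those above, Rorb, a nuclear receptor, had 53.8% and Trpm6, a magnesium channel, 44.9%. The AMB genes were Apba1, Htr7 and Atrnl1. None of these 10 was free of KO LAD. The list was put together with the long genes of the chromosome in view and is no independent evidence about gene function. Of 14 immune and cell death genes none overlapped a WT LAD or a DR, and Pdcd1lg2, a ligand of the receptor PD-1, was IP. The list of developmental transcription factors, which also took in the chromatin-remodelling gene Smarca2, had 16 gene models. Of these, 3 overlapped a DR (both of Glis3, and Rfx3), while Dmrt1, Pax2, Smarca2 and Tlx1 were IP.

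**Figure D5:**
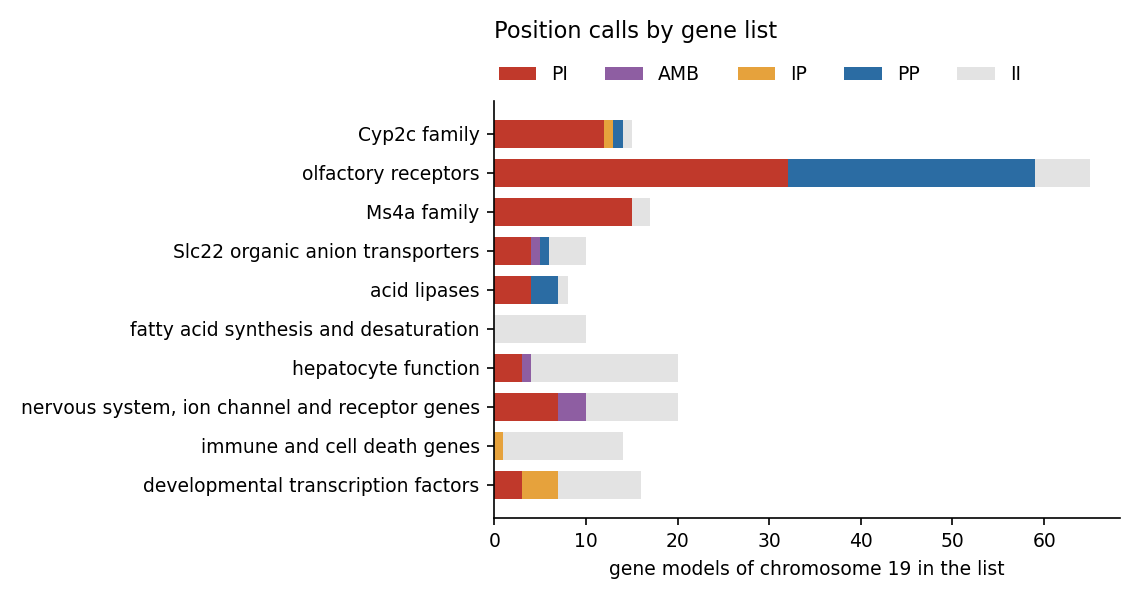
Number of chromosome 19 gene models in each list by position call: PI and AMB overlap a WT-only DR, IP only a KO-only DR, PP lies in LADs of both genotypes, and II in none of these. PI genes make up 15 of 17 Ms4a genes and 12 of 15 Cyp2c genes, and none of the 10 genes of fatty acid synthesis.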

How the data were processed

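DamID of lamin B1 gave 4 libraries, with the fusion and the free methylase in WT and in KO. The authors mapped the reads to mm9, divided the fusion by the free methylase in each DpnI fragment on a log2 scale, and segmented these ratios into LADs in DNAcopy with default settings. BWA and limma are named in the submitters' processing notes, their role not given. The deposited lists hold positions only, with no count, ratio or depth per region, so the depth behind a region is unknown here. Samples were grouped by the genotype and construct in their labels.

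The chromosome 19 DRs were checked by repeating the subtraction of KO LADs from WT LADs, which returned 370 of 370 with the same borders. Base composition and GATC sites were counted on the NCBIM37 assembly, the same as mm9, with pysam 0.24.0, and genes were those of GENCODE release M1. Python 3.11.15, numpy 2.4.6 and matplotlib 3.10.9 were used. An overlap was at least 1 base, and positions are 1-based. Interval arithmetic was tested on simulated data, with 0 errors in 2953 subtracted stretches. No test was run between genotypes, and other autosomes are given as ranges.

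The genes named were those over the 10 longest DRs, the 10 with the most DR bases, the 5 longest wholly in a DR, those in the 5 longest complete-LAD DRs, list members, Tm7sf2, and those in the longest WT LADs without a DR. Tll2, Ins1, Ccdc147, Mir204, Emx2os and its neighbour Emx2, Fas, Gna14 and Asah2 were named after their values were seen. The members and lists were chosen with earlier results of these data known. Alternatives changed the minimum length of a DR, joined LADs across gaps, widened KO LADs and changed the gene overlap. Signal values per region from the study's supplement were not used here.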

Additional observations from a re-analysis of the deposited data

How the results depend on the processing

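A value was taken as unmoved where it stayed within 1.5 times the reported one or, for a share of regions, within its Wilson interval. Of 75 alternative values, 50 were unmoved and 25 were not. The yardsticks differ in width, so this tally does not measure stability. A share inside of 53.3% counted as moved from 46.8%, and 85.0% outside KO LADs as unmoved from 60.8%. With DRs of at least 20 kb there were 232 DRs with a median of 43.3 kb, and 43.8% of WT LADs had at least 50% of their bases in them. With DRs of at least 50 kb there were 92 DRs over 7.52 Mb, with a median of 71.8 kb, 53.3% inside a WT LAD and 14.1% a complete one. At that minimum, 13.6% of WT LADs had at least 50% of their bases in DRs, 57 genes overlapped a DR and 34 had their start in one. With differences of any length, 18.9% were a complete LAD and 74.4% of WT LADs had at least 50% of their bases in them. With LADs joined across gaps of up to 20 kb, the median was 46.4 kb, 59.0% were inside and 16.8% complete. Across gaps of up to 50 kb there were 152 DRs with a median of 71.2 kb, 63.8% inside, 10.5% complete and 61.9% of WT LADs with at least 50% in DRs. With KO LADs widened by 5 kb on each side, 38.03% were inside, 30.3% complete and 53.7% of WT LADs had at least 50% in DRs. With at least 50% of the gene span required, 78 genes overlapped a DR. The share of WT LAD bases outside KO LADs, 60.8%, went down to 47.7% with LADs joined across 50 kb and up to 85.0% with only LADs of at least 50 kb in both lists (the median LAD was 21.4 kb in KO and 40.9 kb in WT). Over the alternatives, the G+C content of the DRs lay between 39.6 and 40.2%, GATC between 2.44 and 2.49 per kb and the gene share between 30.2 and 34.6%. The G+C difference between DRs and kept LADs, run under alternatives chosen after seeing the data, was -0.46 points with DRs of at least 50 kb and 0.10 points, of the opposite sign, with LADs joined across 50 kb. The cause was not tested. No paired analysis was possible because the labels carry no replicate numbers and each genotype had 1 pair of libraries. For the same reason no library could be left out.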

Other observations

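Other gene types of the annotation overlapped the chromosome 19 DRs as well. Of 36 microRNA genes, 7 did, Mir204 among them, and of 35 lincRNA genes, 5 did. The lincRNA gene Emx2os, antisense to the forebrain homeobox gene Emx2, had 73.0% of its span in a DR, at chr19:59500208-59524696, while Emx2 was II. Of 46 pseudogenes, 6 overlapped a DR, as did 5 of 29 snRNA genes and 4 of 35 snoRNA genes. So did 3 of 11 miscellaneous RNA genes, 3 of 32 processed transcripts and 1 of 8 rRNA genes. Among the protein-coding genes of the chromosome it was 120 of 724 (16.6%), and nothing is read from these counts. The 115.9 kb complete-LAD DR, which held no protein-coding gene, lay 18.3 kb from Fas, a death receptor gene, which was II, and 30.3 kb from Lipa.

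Each DR contained many possible DamID fragments. The DRs held between 19 and 429 GATC sites each, with a median of 70, and the longest stretch without one was 4.91 kb. No DR contained unread bases of the assembly.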
